A study of Homo sapiens with 4 samples.

Results

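WNT pathway genes were examined after knockdown of METTL14 in SK-N-BE(2), a cultured line of human neuroblastoma that carries MYCN amplification. The set was taken by gene name and held 64 protein-coding genes of the 60671 in the count table. It comprised the 19 WNT ligands, the 10 Frizzled (FZD) receptors, the 4 genes each of the DKK, SFRP and R-spondin (RSPO) families, and 23 further genes for ligand processing, co-receptors, antagonists, the R-spondin branch and the intracellular pathway. The cells carried either a scramble hairpin (shNC, 2 libraries) or a hairpin against METTL14 (shMETTL14, 2 libraries). According to the study's methods, hairpins were delivered with a pLKO.1 lentivirus and infected cells were kept under puromycin, so that both groups share the vector and the selection. The labels do not give the METTL14 hairpin that the sequenced cells carried, nor whether the replicates were separate infections, so p-values measure only the spread between these libraries.

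WNT ligands are secreted lipid-modified proteins. PORCN adds the lipid, WLS carries the ligand to the cell surface and NOTUM removes the lipid outside the cell. At the receiving cell a ligand binds a Frizzled receptor, with LRP5 or LRP6 as co-receptor for the branch that runs through beta-catenin (CTNNB1), or with ROR1, ROR2 or RYK for other branches. Without a signal, a complex of AXIN, APC and kinases marks beta-catenin for destruction, and with a signal beta-catenin enters the nucleus and works with TCF and LEF factors. Genes such as AXIN2, NKD1, NOTUM, RNF43 and ZNRF3 are feedback inhibitors, and DKK and SFRP proteins inhibit from outside. In the neural crest, from which neuroblastoma arises, WNT signals act in the induction and migration of cells.

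Promoter sequences are shown for the members whose start region held a TCF/LEF word before the start site, since the factors themselves are among the members. RefSeq promoters (GRCh38.p14, from 250 bases before to 50 bases after a start) were found for 45 of the 64 members. The words searched on both strands began with CTTTG and ended in AA, AT, TA or TT. They overlap words used for SOX factors, with which they share CAAAG. At least 1 word stood in a promoter of 4 of the 45 members, against 13.8% of all 35116 promoters in the table. The 4 were DKK1, TCF7, TCF7L2 and WNT3, all of them tested genes. Among tested members with a promoter the count was thus 4 of 24, against 9.37% of the promoters of tested genes. Members were counted once per gene and the background once per promoter, so the units differ. The counts are small and the difference was not tested. In WNT3 the word began 19 bases after the start. The others are printed 5′ to 3′ on the strand of the gene, with the word in capitals and 20 bases on either side.
DKK1, chr10:52314166-52314231, plus strand: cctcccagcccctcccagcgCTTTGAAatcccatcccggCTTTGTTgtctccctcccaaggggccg
TCF7, chr5:134123548-134123594, plus strand: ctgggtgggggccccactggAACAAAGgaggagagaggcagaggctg
TCF7L2, chr10:113126480-113126526, plus strand: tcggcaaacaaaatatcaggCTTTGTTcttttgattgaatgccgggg
The DKK1 words began 95 and 76 bases before the start, and the TCF7 and TCF7L2 words 50 and 133 bases before it. The RefSeq starts used for TCF7 and TCF7L2 lie 8907 and 176383 bases inside the genes as GENCODE 29 annotates them, so these windows belong to internal starts. A match is a run of letters and was not tested as a binding site.

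Depth was even, with 18925786 to 19886214 counts in genes per library. METTL14 (ENSG00000145388) was read 753 and 754 times in shNC and 303 and 321 times in shMETTL14, which gave -1.26 on the log2 scale (standard error, SE, 0.0832, edgeR adjusted p = 3.6e-11). The mean chi-square per gene was 2.68 between the shNC libraries, 2.23 between the shMETTL14 libraries and 31.1 to 32.0 between groups, where sampling noise alone gives about 1. All 12 markers of noradrenergic neuroblastoma cells were tested, of which 10 were lower and 2, ISL1 and MYCN, higher in shMETTL14 cells. Their summed level was 6142 to 6292 CPM (counts-per-million, scaled by edgeR's TMM factors) in shNC and 5976 to 6015 CPM in shMETTL14. MYCN carried much of this sum, and the other 11 markers summed to 3546 to 3656 CPM in shNC and 2822 to 2824 CPM in shMETTL14. Of 16 markers of mesenchymal or Schwann-like cells, 13 were tested, with 2 higher and 8 lower. PRRX1 and SOX10 had at most 3 counts in any library. The 16 summed to 2880 to 2932 CPM in shNC against 2894 to 2955 CPM in shMETTL14. VIM, which was not called, carried much of this sum, with means of 1937 CPM in shNC and 1980 CPM in shMETTL14. Beside these marker counts, 27.2% of all genes tested were called higher and 25.3% lower. The part of these marker shifts in the WNT results was not tested, and in bulk RNA fewer cells of a type and less RNA per cell cannot be told apart.

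Of the 64 WNT genes, 37 were expressed highly enough to test and 26 were called at an edgeR adjusted p under 0.05, 13 higher and 13 lower in shMETTL14 cells. Among all 16309 genes tested, 52.5% were called, 27.2% higher and 25.3% lower, and among protein-coding genes 58.5% were called, so a call alone sets no gene apart in these data. The groups did not overlap for 33 of the 37, where 75.5% of all genes tested did not. The median log2 fold change of the 37 was -0.05, beside -0.00095 over all genes tested, and their median absolute change was 0.33 beside 0.30. With a change of at least 2-fold, 3 members were called, all lower: WNT4, WNT6 and NKD1. Over all genes, 8.79% were called with such a change and 5.99% were called lower with it. WLS stood just short of this limit at 1.98-fold higher, and passed it without shNC library 2 (log2 fold change 1.10) or shMETTL14 library 1 (1.00).

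**Figure D1:**
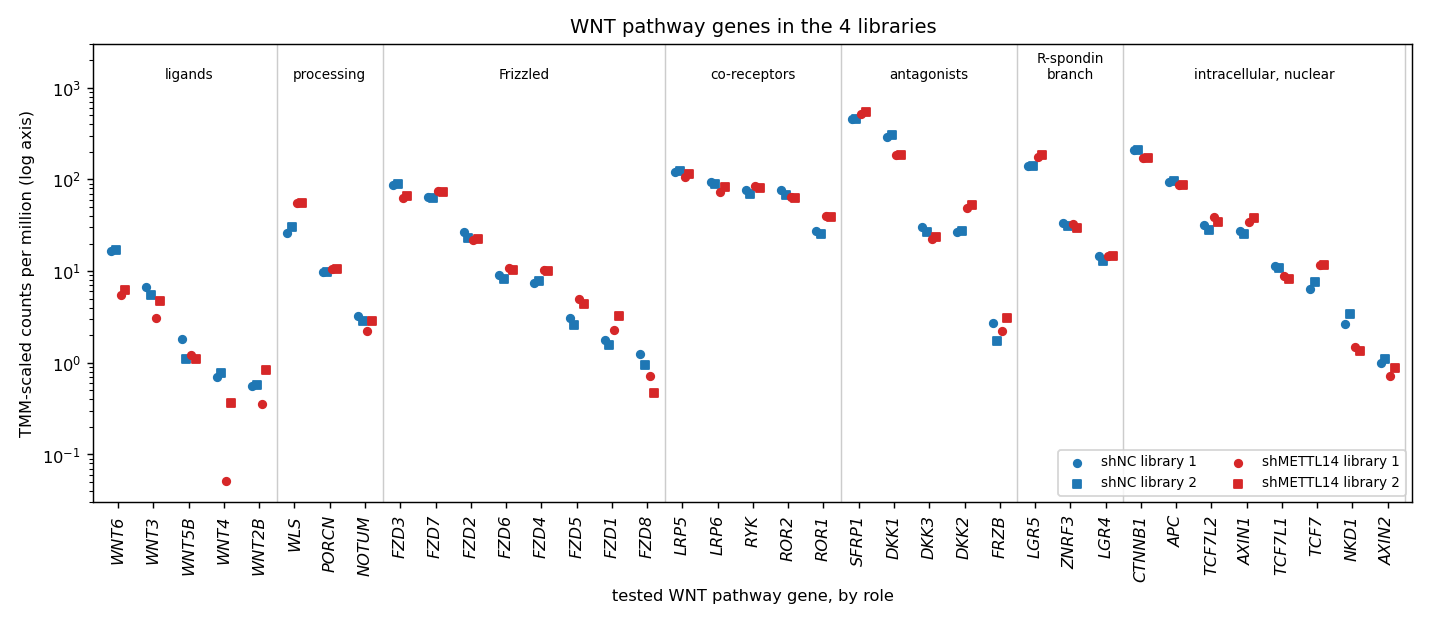
TMM-scaled CPM (log axis) of the 37 tested WNT genes in each library, grouped by role and ordered by shNC level; circles are libraries 1 and squares libraries 2, blue for shNC and red for shMETTL14. WNT6, DKK1 and NKD1 lie lower, and WLS and DKK2 higher, in both red libraries than in both blue ones. The members span from under 1 CPM, for WNT2B and WNT4 in every library and for FZD8 and AXIN2 in some, to 547 CPM for SFRP1.

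Most WNT ligands were too low to test. Of 19, only 5 could be tested, and 6 further ligands, WNT5A, WNT8B, WNT10A, WNT11, WNT10B and WNT9A, reached 3 or more counts in some library. No count was found for WNT1, WNT7A, WNT7B, WNT9B and WNT16, and at most 1 for WNT2, WNT3A and WNT8A. A count of 0 allows up to 3 counts, or 0.150 to 0.156 CPM in these libraries. Compared per length, as CPM per kb of annotated exon, WNT6 supplied 79.9% of the summed ligand level in shNC cells and 70.1% in shMETTL14 cells.

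WNT6 was the leading ligand and had the firmest decrease among the ligands tested. The gene (ENSG00000115596) spans bases 218859821 to 218874233 of chromosome 2, plus strand, in GENCODE 29 (GRCh38). WNT6 had 330 and 325 counts in shNC and 108 and 121 in shMETTL14. Both shMETTL14 libraries lay well below both shNC libraries. The level was 16.8 ± 0.294 CPM (SD, n = 2) in shNC and 5.9 ± 0.545 CPM (SD, n = 2) in shMETTL14, a fitted level of 35.2% of the control, or -1.51 as a log2 fold change (SE 0.122, adjusted p = 1.1e-09). Of all genes tested, 2.81% had a lower log2 fold change. WNT10A, the neighbour of WNT6 that starts 6129 bases downstream on the same strand, had 8 and 16 counts against 4 and 8 and was too low to test.

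WNT3, a ligand of the beta-catenin branch, had 135 and 105 counts in shNC and 60 and 90 in shMETTL14. Its log2 fold change was -0.67 (SE 0.199, adjusted p = 0.0078). The groups did not overlap, but the shMETTL14 libraries differed from each other, and without shMETTL14 library 1 the value was -0.39 and no longer called (adjusted p = 0.138). It was also not called without shNC library 1 (adjusted p = 0.0805) or with DESeq2 (adjusted p = 0.0996). WNT9B, which starts 46 bases from WNT3 on the other strand in GENCODE 29, had no count in any library.

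WNT4 had 14 and 15 counts in shNC and 1 and 7 in shMETTL14. Its log2 fold change of -1.82 (SE 0.638, adjusted p = 0.0208) rested on few reads. It was -3.70 without shMETTL14 library 2 and -1.01, not called, without library 1 (adjusted p = 0.33). The call was also lost without either shNC library (adjusted p = 0.0765 and 0.113) and with DESeq2 (adjusted p = 0.18). WNT2B and WNT5B were not called, with log2 fold changes of 0.07 (SE 0.521) and -0.33 (SE 0.366). For WNT2B, 21.2% of the exon length is shared with ST7L on the opposite strand.

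The ligands that were not tested had at most 16 counts in any library. WNT5A, the best known ligand of ROR2, had 4 and 3 counts in shNC and 0 in both shMETTL14 libraries. WNT8B had 4 and 6 counts against 2 and 3, and WNT11 had 5 and 6 against 4 and 1. WNT10B had 3 counts in shNC library 2, and WNT9A had 3 in shNC library 1, with 0 elsewhere for both. Summed over the 19 ligands, the libraries held 512 to 551 counts in shNC and 211 to 268 in shMETTL14. Per length the sum was 12.3 ± 0.00804 CPM per kb (SD, n = 2) in shNC and 4.94 ± 0.654 CPM per kb (SD, n = 2) in shMETTL14, 40.1% of the control.

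In ligand processing, 1 of 3 genes was called. WLS, the cargo receptor for WNT secretion (ENSG00000116729, minus strand of chromosome 1 from 68098473 to 68233120), rose from 515 and 576 counts to 1070 and 1073. Its CPM went from 28.0 ± 3 (SD, n = 2) to 55.2 ± 0.781 (SD, n = 2), the largest increase among the tested members, or 0.98 as a log2 fold change (SE 0.0739, adjusted p = 3.2e-10). Of all genes tested, 3.32% had a higher log2 fold change. PORCN, the acyltransferase, was not called at 0.12 (SE 0.119, adjusted p = 0.426), with 196 and 186 counts against 208 and 204. NOTUM, the deacylase, was not called at -0.25 (SE 0.244, adjusted p = 0.402), with 64 and 55 counts against 44 and 55. PORCN and NOTUM thus remained without a detectable difference at this depth, and NOTUM ranged from -0.43 without shMETTL14 library 2 to -0.09 without library 1.

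**Figure D2:**
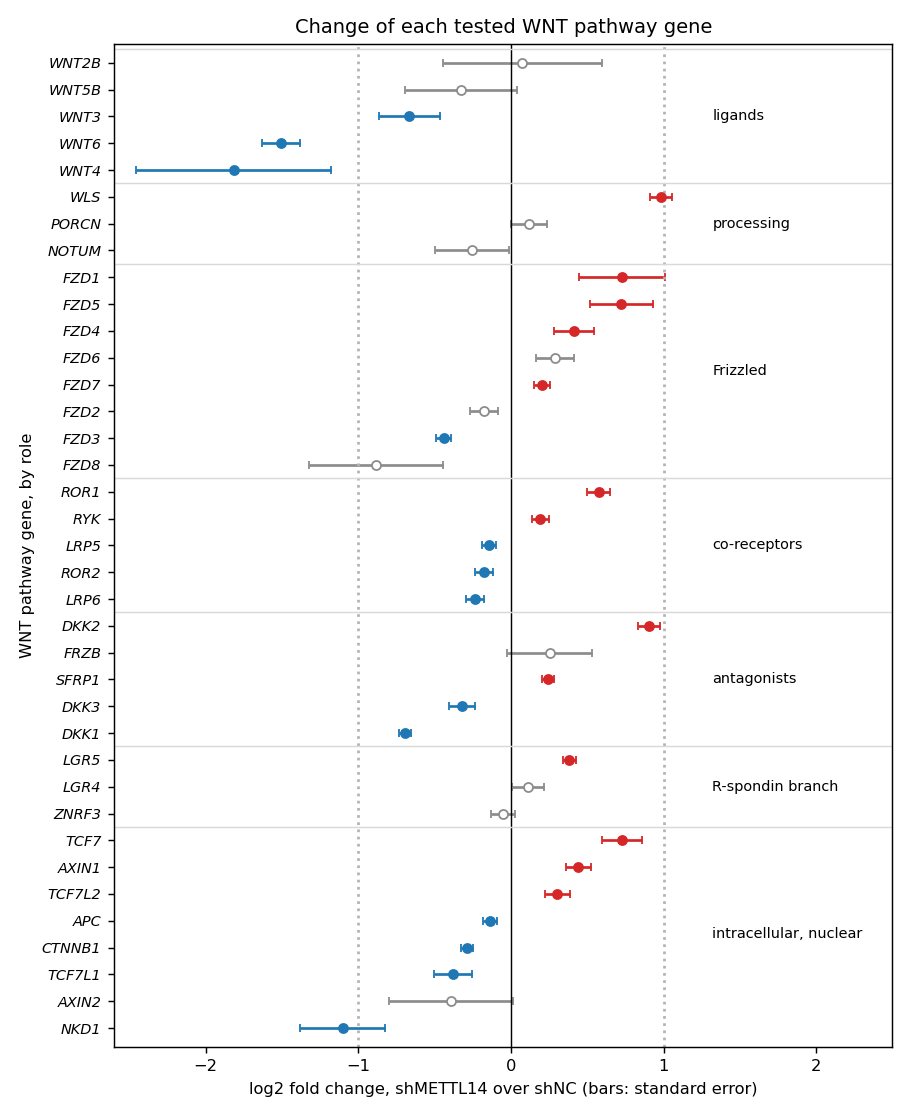
Log2 fold change (shMETTL14 over shNC) of the 37 tested WNT genes with standard errors as bars, grouped by role; filled red and blue points were called higher and lower, open grey points were not called, and dotted lines mark a 2-fold change. WNT6, WNT4 and NKD1 lie beyond the dotted line on the left and WLS lies just inside the one on the right.

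Frizzled receptors changed in both directions while their sum stayed level. Of 10, 8 were tested, 4 were called higher and 1 lower. FZD10 had no count, and FZD9 had 1 and 4 counts against 5 and 10. FZD7 had the highest level per length in shNC at 16.5 ± 0.329 CPM per kb (SD, n = 2), followed by FZD2 (11.8), FZD3 (6.41), FZD6 (2.13), FZD4 (1.03), FZD5 (0.42), FZD8 (0.27) and FZD1 (0.24). Each neighbour in this order was separated in both shNC libraries except FZD8 and FZD1, whose libraries overlapped. The summed level per length was 38.9 ± 1.61 CPM per kb (SD, n = 2) in shNC and 39.6 ± 0.0797 CPM per kb (SD, n = 2) in shMETTL14.

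FZD3, a receptor known for axon guidance and planar polarity, was the called decrease. It had 1731 and 1719 counts against 1243 and 1282, and its log2 fold change was -0.44 (SE 0.0511, adjusted p = 2.3e-07). FZD7 rose slightly, from 1290 and 1205 counts to 1453 and 1403, at 0.20 (SE 0.0519, adjusted p = 0.0022). FZD5 rose from 61 and 50 counts to 97 and 85, or 0.72 as a log2 fold change (SE 0.207, adjusted p = 0.0057). FZD1 had 35 and 30 counts in shNC and 45 and 62 in shMETTL14, or 0.73 as a log2 fold change (SE 0.281, adjusted p = 0.0343).

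The weaker Frizzled calls depended on the fit. FZD1 was not called with DESeq2, upper quartile scaling, or without either shNC library or shMETTL14 library 2, where it was 0.47, and FZD4 (0.41, adjusted p = 0.0099) and FZD5 were not called with DESeq2. FZD2 (-0.18, adjusted p = 0.102), FZD6 (0.29, adjusted p = 0.0588) and FZD8 (-0.89, adjusted p = 0.0953) were not called, though FZD2 was called lower without shNC library 2, with library size alone and under upper quartile scaling. FZD4 shares 19.0% of its exon length with PRSS23 on the opposite strand.

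All 5 co-receptors and tyrosine kinase receptors were called, beside 58.5% of all protein-coding genes tested, with small changes apart from ROR1. Only the call of ROR1 held in every alternative fit, as given below. ROR1, a WNT5A receptor of embryonic and tumour cells, rose from 542 and 487 counts to 781 and 741. Its log2 fold change was 0.57 (SE 0.0757, adjusted p = 1.4e-06), and both shMETTL14 libraries lay above both shNC libraries. ROR2, its paralog, was lower at -0.18 (SE 0.059, adjusted p = 0.0147), with 1514 and 1283 counts against 1245 and 1209. Per length, ROR2 stood at 12.3 ± 1.09 CPM per kb and ROR1 at 3.92 ± 0.185 CPM per kb in shNC (SD, n = 2 each), and 10.9 ± 0.0931 and 5.84 ± 0.146 CPM per kb in shMETTL14.

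LRP6, the co-receptor that DKK1 blocks, had 1869 and 1702 counts in shNC and 1416 and 1597 in shMETTL14. Its log2 fold change was -0.23 (SE 0.0575, adjusted p = 0.0016), and -0.13 without shMETTL14 library 1, where it was not called (adjusted p = 0.098). LRP5 was lower at -0.15 (SE 0.0461, adjusted p = 0.0108) and RYK higher at 0.19 (SE 0.0549, adjusted p = 0.0057). The calls of LRP5, ROR2 and RYK were lost with DESeq2 and each when 1 of 2 libraries was left out, namely shNC library 2 or shMETTL14 library 1 for LRP5 and RYK, and shNC library 1 or shMETTL14 library 2 for ROR2. Without shNC library 1 the ROR2 value was -0.09, and RYK was 0.13 without shNC library 2 and 0.12, not called, under upper quartile scaling.

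The secreted antagonists DKK1 and SFRP1 had the highest levels per length of all members in shNC, and the called DKK genes moved in opposite directions. DKK1 and SFRP1 stood above 98.6% and 98.0% of tested genes per length in shNC. DKK1 (ENSG00000107984, plus strand of chromosome 10 from 52314296 to 52318042), a secreted inhibitor of LRP5 and LRP6, fell from 5841 and 5862 counts to 3612 and 3572. The log2 fold change was -0.70 (SE 0.0407, adjusted p = 5.6e-12), a level of 61.8% of the control. DKK2, which also binds LRP5 and LRP6 (ENSG00000155011, minus strand of chromosome 4 from 106921802 to 107283806), rose from 531 and 522 counts to 954 and 1008, or 0.91 as a log2 fold change (SE 0.0716, adjusted p = 6.4e-10). For both genes the libraries within a group differed little and the groups stood far apart.

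DKK1 remained the major DKK transcript. Per length it made up 91.9% of the summed DKK level in shNC and 83.8% in shMETTL14, and the sum was 148 ± 3.8 CPM per kb against 100.1 ± 1.06 CPM per kb (SD, n = 2 each). DKK3, a divergent family member, was lower, at -0.32 (SE 0.0852, adjusted p = 0.0032), with 607 and 516 counts against 443 and 450. It was not called without shNC library 1 (-0.23, adjusted p = 0.0631) or with DESeq2 (adjusted p = 0.0621). DKK4 had no count. PRKG1-AS1 on the opposite strand shares 9.61% of the DKK1 exon length.

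SFRP1, which binds WNT ligands, rose from 8999 and 8672 counts to 10241 and 10523, at 0.24 (SE 0.0383, adjusted p = 1.5e-05). The order of the leading antagonists therefore differed between the groups. Per length DKK1 was above SFRP1 in both shNC libraries, at 133 and 139 CPM per kb against 94.8 and 95.1 CPM per kb. In both shMETTL14 libraries it was below, at 83.6 and 84.1 CPM per kb against 109.9 and 115 CPM per kb. FRZB was not called at 0.26 (SE 0.279), with 54 and 33 counts against 44 and 59. SFRP2 and WIF1 had at most 2 and 1 counts, SFRP4 had 1 or 2 counts in each library, and SFRP5 had 7 and 5 against 5 and 2.

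**Figure D3:**
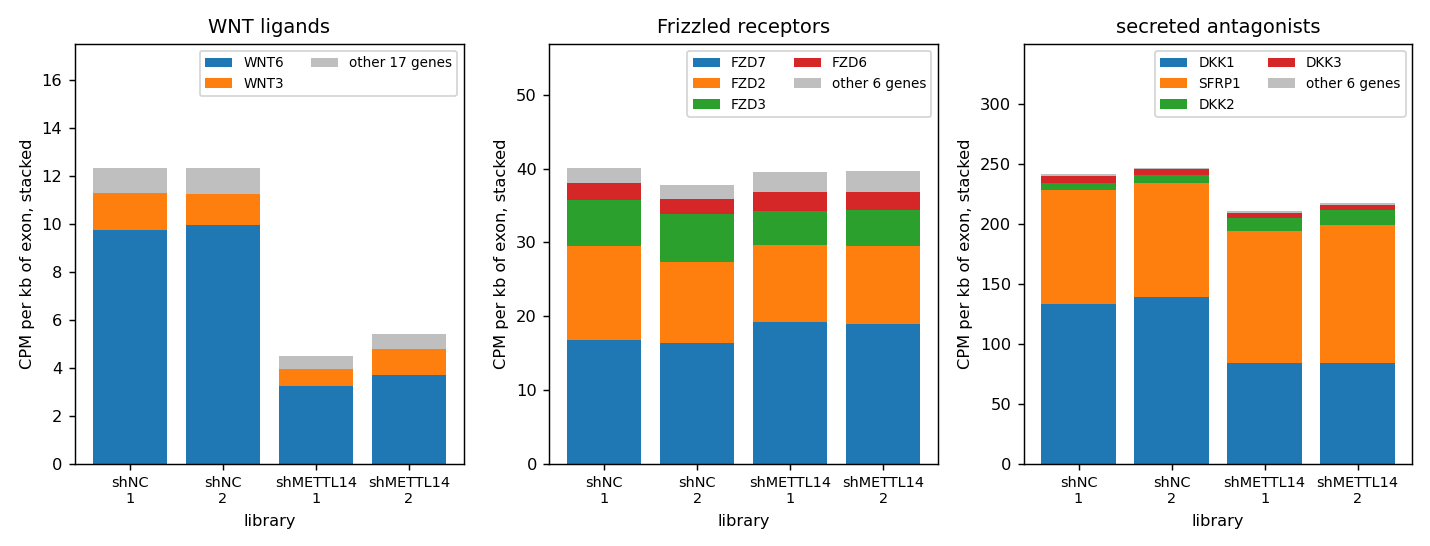
Stacked levels per length (CPM per kb of annotated exon, from 0) of the WNT ligands, the Frizzled receptors and the secreted antagonists DKK, SFRP, FRZB and WIF1 in each of the 4 libraries, with the leading genes in colour and the rest in grey. The ligand sum is 12.3 in both shNC libraries and 4.48 and 5.41 in the shMETTL14 libraries, the Frizzled sum stays between 37.8 and 40.1, and DKK1 shrinks while SFRP1 and DKK2 grow.

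In the R-spondin branch the receptors were present and the ligands nearly absent. R-spondins bind LGR receptors and keep the ubiquitin ligases RNF43 and ZNRF3 from removing Frizzled receptors. RSPO1 and RSPO4 had no count, RSPO3 had 1 count in shMETTL14 library 1 alone, and RSPO2 had 2 and 3 counts against 6 and 5. LGR5, a stem cell marker of the gut and other epithelia, rose from 2759 and 2657 counts to 3457 and 3554, or 0.38 as a log2 fold change (SE 0.0428, adjusted p = 1.4e-07). Per length it stood at 26.4 ± 0.0448 CPM per kb in shNC and 34.4 ± 1.09 CPM per kb in shMETTL14 (SD, n = 2 each). LGR4, its more widely expressed paralog, was at 2.15 CPM per kb in shNC and was not called at 0.11 (SE 0.105).

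ZNRF3 was not called at -0.05 (SE 0.0795, adjusted p = 0.625), with 668 and 588 counts against 636 and 569 and overlapping groups. RNF43 had 0 counts in all libraries. In GENCODE 29, 57.6% of the RNF43 exon length is shared with another protein-coding gene (ENSG00000285897) on the same strand and 20.3% with TSPOAP1-AS1 on the other, and reads there can be set aside as ambiguous, so its level is uncertain.

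Among intracellular genes, beta-catenin itself fell modestly. CTNNB1 had 4163 and 3997 counts in shNC and 3352 and 3286 in shMETTL14. The log2 fold change was -0.29 (SE 0.0404, adjusted p = 3.2e-06), a level of 81.9% of the control, and the groups did not overlap. The scaffolds of its destruction complex differed in direction. AXIN1 rose from 547 and 485 counts to 669 and 723, at 0.44 (SE 0.0799, adjusted p = 7.7e-05). APC was lower at -0.14 (SE 0.0472, adjusted p = 0.0188), with 1868 and 1850 counts against 1691 and 1669, a call lost with DESeq2, with no filter and in 3 of the 4 comparisons that left out 1 library.

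Of the feedback genes, AXIN2 and NKD1 were low in both groups. AXIN2 had 20 and 21 counts in shNC and 14 and 17 in shMETTL14, which was not called at -0.39 (SE 0.405, adjusted p = 0.44). Without shMETTL14 library 1 the value was -0.24. Its level per length was above that of 4.64% of tested genes. It shares 25.2% of its exon length with another annotated gene on the same strand. NKD1, which binds Dishevelled, had 53 and 66 counts in shNC and 29 and 26 in shMETTL14, a decrease on the log2 scale of -1.10 (SE 0.28, adjusted p = 0.0022). Without shNC library 2 it was -0.90 and still called (adjusted p = 0.0437).

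The TCF factors diverged. TCF7 rose from 128 and 147 counts to 227 and 225, or 0.73 as a log2 fold change (SE 0.131, adjusted p = 7.6e-05). TCF7L2, the most abundant of the family per length, was higher at 0.30 (SE 0.0822, adjusted p = 0.0038), with 631 and 538 counts against 766 and 666. TCF7L1, often a repressor, was lower at -0.38 (SE 0.123, adjusted p = 0.0132), with 224 and 208 counts against 172 and 158. LEF1 was practically absent, with 1 count in shNC library 1 and 1 in shMETTL14 library 1. The call of TCF7L2 was lost without shMETTL14 library 1 (0.21, adjusted p = 0.0753). That of TCF7L1 was lost with DESeq2, without shNC library 1 and without shMETTL14 library 2.

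The rest of the pathway was followed with 5 lists holding 125 further genes, of which 97 were tested and 59 called, 33 higher and 26 lower. The share called was 60.8%, and 50% to 70.8% in the single lists. It was near the 58.5% called among all protein-coding genes tested (52.5% of all genes tested), so a call alone sets these genes apart no more than others. The median log2 fold change of the 97 was 0.02. The balance followed the scaling: with upper quartile scaling it was 23 higher and 37 lower, as the share of higher calls over all genes went from 51.8% to 41.7%. Of 21 transducers and destruction complex genes, all tested, 9 were higher and 4 lower, with none at 2-fold. PPP2CA, a phosphatase subunit, was higher at 0.60 (SE 0.0441) and APC2 at 0.37 (SE 0.0598), while TNKS, which marks AXIN for degradation, was lower at -0.46 (SE 0.0439) and the kinase CSNK1A1 at -0.25 (SE 0.0415). DVL1, DVL2 and DVL3, the Dishevelled adaptors, were not called, with values from -0.09 to 0.06.

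Of 19 nuclear cofactors, 9 were called higher and 1 lower, beside 27.2% higher and 25.3% lower over all genes tested. The balance over the lists together followed the scaling, as given above. NLK at 0.42 (SE 0.129) and the beta-catenin adaptor BCL9 at 0.36 (SE 0.0612) were the largest increases, and TLE5 was the decrease at -0.15 (SE 0.0398). Of 28 genes for planar polarity and other branches, 24 were tested, 9 higher and 8 lower. The called changes past 2-fold were in NFATC1, with 109 and 89 counts against 36 and 30 (-1.57, SE 0.232), in PRICKLE3, with 18 and 19 against 7 and 4 (-1.72, SE 0.522), and in CAMK2A. CAMK2A had 15 counts in each shNC library and 1 and 3 in the shMETTL14 libraries (-2.82, SE 0.679), so its value rested on few reads. Its mean shNC level was 4.98-fold that of 3 counts per library, a ratio that leaves out sampling error.

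Of 25 other extracellular and membrane modulators, 14 were tested, 3 higher and 4 lower. BAMBI (0.66, SE 0.106) and TMEM198 (0.65, SE 0.0755) were the largest increases, and IGFBP4 (-0.98, SE 0.087) and the glypican GPC6 (-0.45, SE 0.0601) the largest decreases. Of 32 further feedback genes and commonly cited TCF targets, 19 were tested, 3 higher and 9 lower, with a median of -0.08. EPHB2 and EPHB3, ephrin receptors, fell, EPHB3 from 223 and 185 counts to 83 and 93 (-1.20, SE 0.151) and EPHB2 from 71 and 64 to 26 and 24 (-1.42, SE 0.269). CDX1 had 22 and 28 counts against 13 and 9 (-1.17, SE 0.426), and FOSL1 rose from 26 and 21 counts to 61 and 62 (1.39, SE 0.281). These lists were written from general knowledge, and many of their genes answer to other pathways too.

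**Figure D4:**
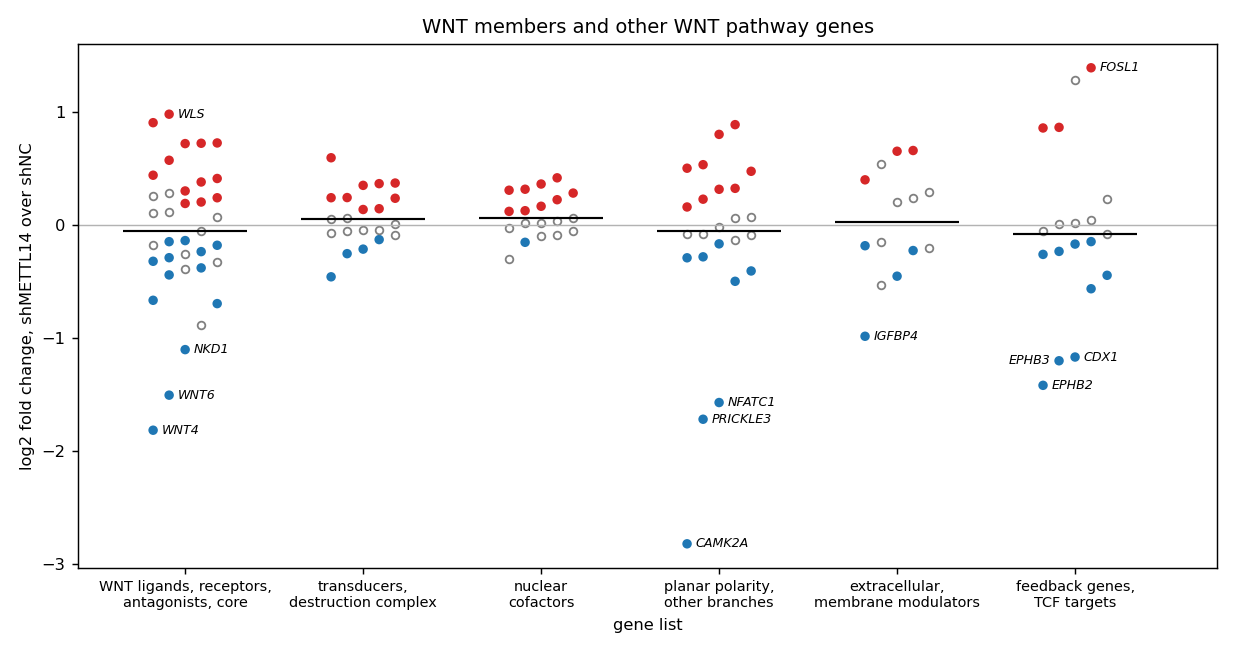
Log2 fold change (shMETTL14 over shNC) of the tested WNT members and of 5 further lists of WNT pathway genes, 1 point per gene. Filled points were called (red higher, blue lower), open points were not, and black lines are medians. Called genes near or past a 2-fold change are named, with CAMK2A at its fitted value, which rests on few reads. The medians lie between -0.08 and 0.07, and the named points are mostly below 0.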

How the data were processed

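For 4 libraries of paired-end NovaSeq reads, the authors deposited unnormalised counts of reads by Ensembl gene, in 1 table. The submitters' processing notes name HISAT2 2.1.0, StringTie 1.3.6, HTSeq 0.13.5, edgeR and GRCh38, while the annotation release and strand setting are not given in the sources used here. Without the strand setting, reads of overlapping genes can be lost or miscredited. Lines naming no gene (19.1% to 19.9% of counts) were left out. Libraries were grouped by their labels, and 0 other sample columns were present. Symbols came from a table of gene names, and gene types, coordinates and exon lengths from GENCODE 29 (GRCh38).

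Counts were tested over all genes with edgeR 4.0.16 in R 4.3.3 (quasi-likelihood F-test, TMM, filterByExpr with a minimum count of 10 and total of 15, group as the only term, Benjamini-Hochberg adjustment over all genes tested). Standard errors were taken as the log2 fold change over the root of F. With 2 against 2 libraries an exact permutation test cannot go below p = 0.333, so calls rest on the variance shared across genes. CPM per kb divides TMM-scaled CPM by the merged exon length, and a shorter isoform in use would raise it. In simulated counts, 64.5% of genes changed by a log2 fold change of 0.5 were recovered over 16219 genes, and 84.5% of those changed by 1 over 16210 genes. There all genes shared a common dispersion (coefficient of variation 3.4%) and only a small set was changed, unlike the real data. These shares therefore do not give the power of the real comparison. Alternatives were other scalings, filters, DESeq2 1.42.0, a replicate block and leaving out each library. METTL14, all members, and listed pathway genes called past 2-fold, otherwise the 2 largest called in each direction, could be named. Beyond this rule the DVL genes and the markers ISL1, MYCN, PRRX1, SOX10 and VIM were named after their values were seen. The members and lists were chosen with earlier results of these data known.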

Additional observations from a re-analysis of the deposited data

How the results depend on the processing

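Of the 26 called WNT genes, 13 kept their call and direction in all 11 alternative fits: WNT6, WLS, DKK1, DKK2, ROR1, FZD3, FZD7, LGR5, SFRP1, CTNNB1, AXIN1, TCF7 and NKD1. A further 6, AXIN2, FZD6, FZD8, LGR4, NOTUM and PORCN, were never called and also kept their direction in every fit in which they were tested. FZD8, WNT2B and WNT4 were not tested with a minimum of 10 counts in every library. With DESeq2, 15 WNT genes were called, all among the 26, and 39 rather than 59 of the other pathway genes and 5556 rather than 8561 of all genes; the cause was not tested. With a 1.5-fold limit 10 members were called, 5 higher and 5 lower, which follows from the limit. With 1 library left out, 19 to 22 members, 2 to 3 at 2-fold (1 of them, WLS, higher without shNC library 2 or shMETTL14 library 1), 47 to 55 other pathway genes and 7287 to 7458 of all genes were called, and 4 genes that were never called changed sign, with ranges of -0.025 to 0.62 for FRZB, -0.64 to 0.56 for WNT2B, -0.63 to 0.075 for WNT5B and -0.12 to 0.025 for ZNRF3. In such fits the lone library is assumed to vary like the others. The replicate numbers share only a number (Pearson correlation of deviations 0.0468, Spearman 0.0429), and with them as a block 26 members and 8926 genes were called. Upper quartile scaling moved the median of all genes to -0.07. Depth limits members under about 50 counts, whose standard errors reached 0.638.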

Other observations

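The longest coding transcripts of the members were searched on the sense strand for GGACT, the DNA spelling of a frequent m6A sequence. The 13 members called higher had a median of 0.728 per kb (range 0.223 to 1.35), the 13 called lower 1.13 per kb (range 0.509 to 2.91) and the 11 not called 1.17 per kb. Over all tested genes with a coding transcript the medians were 0.958 for higher, 0.884 for lower and 0.932 for genes not called. LRP5 (2.91 per kb, 15 copies) and LRP6 (1.90 per kb, 19 copies) had the highest density per kb among lower members, and SFRP1 (0.223 per kb, 1 copy) and FZD7 (0.259 per kb, 1 copy) the lowest among higher ones. The ranges overlap, no m6A was measured in these libraries, and the difference was not tested.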
